A study of Canis lupus familiaris with 51 samples.

Results

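Differentiated canine cutaneous mast cell tumors (MCTs) were ranked by the level of CD3E, and the 13 tumors at the top of the ranking (T cell-rich) were compared genome-wide with the 13 at the bottom (T cell-poor). The ranking covered the 39 differentiated tumors among the 51 of the series, and 13 tumors in the middle of it and 12 undifferentiated tumors stayed outside the comparison. The score was to be a mean over the probes named CD3D, CD3E or CD3G, but 1 probe carries such a name in the scanner output, that of CD3E, so the score of a tumor is the z-score of that probe over the 39 tumors. Each tumor was a spontaneous skin tumor of a pet dog, sampled from the centre of the mass at surgery and hybridized on its own one-color Agilent canine array. The labels give no treatment for any tumor, the cells were not sorted, and every value is that of bulk tissue. The T cell-rich tumors came from dogs aged 8 ± 2.86 years and the T cell-poor tumors from dogs aged 7.88 ± 2.22 years (mean ± SD, n = 13 each), of mixed breeds and both sexes. All levels below are log2 quantile-normalized intensities, on which a difference of 1 is a 2-fold change, and levels of different probes cannot be set against each other.

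T cells recognize peptides through a receptor of alpha and beta, or gamma and delta, chains, which carry no signaling part of their own. The CD3 subunits, encoded by CD3D, CD3E and CD3G, are bound to the receptor and pass its signal to the kinase LCK, and costimulatory receptors such as CD28 and ICOS add to it. In the skin, T cells enter from blood vessels in response to chemokines, and they may gather with B cells, plasma cells and antigen-presenting cells that carry MHC class II molecules. In a bulk sample, more T cells and more T cell RNA per cell cannot be told apart.

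The probe that set the ranking and a probe for its partner subunit are shown because the groups rest on the first and the second was not used. Both are 60-base probes placed on chromosome 5 by the scanner output, which names no genome build, at 18412091 to 18412150 for CD3E and at 18386807 to 18386866 for CD3G, and no annotation of that build was used here.
CD3E: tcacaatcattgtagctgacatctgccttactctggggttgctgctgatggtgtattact
CD3G: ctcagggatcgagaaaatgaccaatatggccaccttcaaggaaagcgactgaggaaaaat

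CD3E, which chose the groups, had levels from 7.45 to 9.28 with a median of 7.78 in the T cell-rich tumors, and from 5.99 to 6.76 with a median of 6.49 in the T cell-poor tumors. The last tumor inside the T cell-rich group had a score of 0.40 and the first outside it 0.31, and at the other end the scores were -0.64 just inside the T cell-poor group and -0.58 just outside. T121 stood apart with a score of 3.12, against 1.41 for the next tumor. These values are the rule itself and were not tested. CD3G and CD3D lie beside CD3E on the chromosome and are listed in the scanner output under locus numbers. They were named through the gene table and left out of every test as subunits of the same complex. A probe without a name lies beside that of CD3G, at 18385469 to 18385528 on chromosome 5. It stayed in the tests and is among the probes called below. Whether it reads RNA of a CD3 gene was not tested. CD3G ranged from 7.79 to 10.92 (median 8.75) in the T cell-rich tumors and from 5.16 to 7.65 (median 6.54) in the 12 T cell-poor tumors with a value, so these groups did not overlap. CD3D ranged from 9.69 to 12.32 (median 10.74) against 7.58 to 11.68 (median 8.77). The highest CD3D level among the T cell-poor tumors belonged to T107, above the median of the T cell-rich group, so that the label of T107 holds for CD3E and not for CD3D. The CD3G spot of T107 was an outlier and has no value. Over the 39 tumors, Pearson's r was 0.91 between CD3E and CD3G, 0.77 between CD3E and CD3D and 0.95 between CD3D and CD3G, as a description of tumors that include those chosen on CD3E. With groups drawn from the mean z-score of the 3 subunits, 11 of the 13 T cell-rich and 11 of the 13 T cell-poor tumors stayed in their group, and T107 moved to the T cell-rich side on the values of 2 probes.

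**Figure D1:**
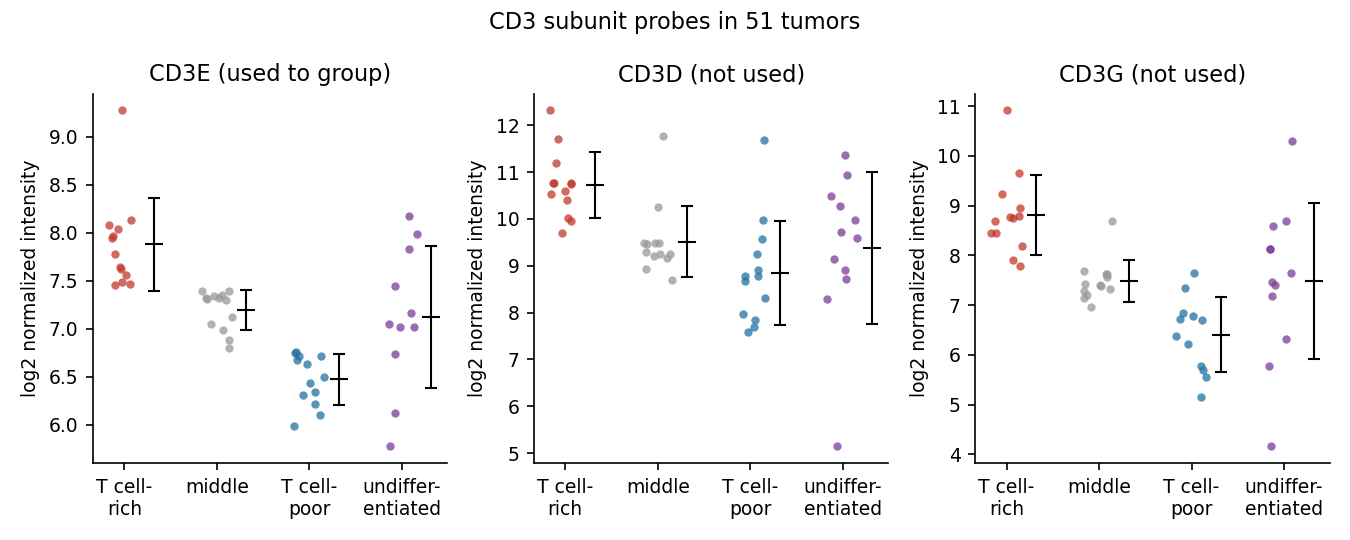
Log2 normalized intensity (vertical axes) of the CD3E, CD3D and CD3G probes in the T cell-rich (n = 13), middle (n = 13), T cell-poor (n = 13) and undifferentiated tumors (n = 12), less the spots left out as outliers, with a point for each tumor and the mean ± SD as a bar beside the points. CD3E separates the groups because it defined them. CD3G does so without having been used, for the 12 T cell-poor tumors with a value. T107, the T cell-poor tumor that reaches 11.68 for CD3D, has no CD3G value.

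A small set of probes was higher in the T cell-rich tumors, among them LCK, CD28, CCL5 and MS4A1, receptor and immunoglobulin chains and DLA-DOB, and no probe was lower at the same threshold. Of 43564 probes tested by limma, 71 were called higher (0.163% of the probes), which means a change of 2-fold or more with a p below 0.01 after Benjamini-Hochberg adjustment, and 0 were called lower. At an unadjusted p under 0.05, 1899 probes were higher (4.36%) and 2540 lower (5.83%). The called differences ran from 1.05 to 4.72 on the log2 scale with a median of 2.18, while the median over all probes was -0.04. The groups did not overlap at all in 17 of the 71, against 0.0918% of all probes. Among the 71 were 4 probes described as T cell receptor chains, 10 described as immunoglobulin chains and 30 that carry a gene symbol, which stand for 22 genes. The remainder carry no gene symbol here. Some of these lie by position at or beside a named probe, such as 1 over an LCK probe and 1 beside the alpha chain constant region probe. The counts by name and description may therefore be too low. T121 had the highest level of the 39 tumors in 47 of the 71, and without it 73 probes were called, 68 of them shared.

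The count changed with the scan session. The 26 arrays came from 9 scan sessions, 4 of which held both groups. With the session as a fixed block, 7 probes were called and 0 of them were lower, while 71 of the 71 differences stayed positive, 69 stayed at 1 or above and the median was 1.92. The 7 were the 4 T cell receptor chain probes, 1 of the 3 LCK probes and 2 without a name, 1 of which lies beside the CD3G probe. Within the 4 sessions the median difference of the called probes was 2.53, 2.17, 1.20 and 1.55. These came from 2 T cell-rich against 3 T cell-poor tumors, 1 against 2, 4 against 1 and 2 against 3. Of the 71 probes, 66 were higher in each session that gave a value. The 71 had been picked on these same arrays, so the signs with and within sessions are not independent of the choice. In the session of 4 against 1, the 4 T cell-rich tumors shared 1 slide, which held 0 T cell-poor tumors. Spots well above background made up 70.1% ± 1.70 of spots on the T cell-rich and 67.3% ± 3.15 of those on the T cell-poor arrays (mean ± SD, n = 13 each, permutation test, two-sided p = 0.00626, adjusted p = 0.0438 over 7 traits), and 46 probes were called with that share as a covariate. Of the other traits, 7 of 12 T cell-rich and 8 of 13 T cell-poor dogs with a stated sex were female. With a stated breed, 0 of 12 and 4 of 13 were Labrador Retrievers (Fisher's exact test, two-sided adjusted p = 0.335). Boxers were 4 of 12 and 1 of 13, and crossbred dogs 5 of 12 and 2 of 13 (same test, adjusted p = 0.354 for each). The part of these traits in the differences was not tested further.

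Of 27 probes described as T cell receptor chains, 4 were higher in the T cell-rich tumors at the threshold, against 0.163% of all probes. A probe for the constant region of the alpha chain was at 7.84 to 9.91 (median 8.51) in the T cell-rich and at 4.98 to 7.40 (median 6.12) in the T cell-poor tumors. Every T cell-rich tumor was above every T cell-poor tumor, and the difference was 2.48 ± 0.26 (log2, SE; limma adjusted p = 3.34e-06). A pair of probes for a receptor mRNA listed without its chain gave 2.28 ± 0.22 and 2.19 ± 0.23, again without overlap. A beta chain probe listed as hcvb21, which the scanner output places on chromosome 16 as it does that pair, gave 2.70 ± 0.34 (adjusted p = 8.60e-05). The hcvb21 probe was well above background on 2 of 13 T cell-poor arrays. Over all 27 probes, 21 had a positive and 6 a negative difference and the median was 0.54, against -0.04 over all probes tested. Only 11 of the 27 cleared background on 13 or more of the 26 arrays. Chains share sequence, so that these probes may in part read the same RNA.

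Of 25 listed genes of the T cell receptor complex and its signaling, 16 had a named probe and 5 were called higher, against 0.155% of all genes with a symbol when each is read by its brightest probe, and the median of the list was 0.69 against -0.03. LCK, the kinase that starts receptor signaling, was at 9.45 to 11.78 (median 9.94) against 7.26 to 9.02 (median 8.20). The groups did not overlap, the difference was 1.86 ± 0.21 (adjusted p = 1.11e-05), and the gene's 2 other probes were called as well. CD28, which gives T cells their main costimulatory signal, was at 4.15 to 7.13 (median 4.69) in the T cell-rich tumors, all well above background. It was not well above background on any T cell-poor array, and the difference was at least 1.95-fold (adjusted p = 4.39e-06), a bound set by the dimmest signal counted as well above background on each array. With normexp background correction the difference was 0.51, under the 2-fold limit. PTPRCAP, a partner of the phosphatase CD45, was at 9.36 to 11.84 (median 10.00) in 11 tumors against 7.83 to 9.28 (median 8.22) in 12. These did not overlap, the difference was 1.86 ± 0.26 (adjusted p = 4.03e-04), and its 2 other probes were also called. SH2D1A, an adaptor of the SLAM receptors of T and NK cells, was at 6.30 to 8.80 (median 7.07) against 3.74 to 6.82 (median 5.28), a difference of 1.97 ± 0.32 (adjusted p = 0.00160). CD2, an adhesion receptor of T and NK cells, was at 7.77 to 9.65 (median 8.46) against 5.60 to 8.15 (median 7.17), a difference of 1.49 ± 0.27 (adjusted p = 0.00567). Both of these genes overlapped between the groups at their ends, and with normexp background correction they gave 0.82 and 0.92, under the 2-fold limit. CD27, a costimulatory receptor of the TNF receptor family, passed the adjusted p (0.00917) at 0.96 ± 0.18 and stayed under the 2-fold limit. THEMIS (-0.14), PTPN7 (-0.11) and SKAP1 (-0.70) were not called. CD5 and ZAP70 have no named probe here.

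Among the cytotoxic genes, CD8A and CCL5 were higher in the T cell-rich tumors, and the granule and NK receptor genes did not pass. CD8A, the co-receptor of cytotoxic T cells, was read by 2 probes that differed in size. The first was at 5.24 to 6.60 (median 5.79) against 1.96 to 5.25 (median 3.47), a difference of 2.54 ± 0.29 (adjusted p = 1.46e-05), with 2 of 13 T cell-poor arrays well above background. With normexp background correction, which adds an offset of 50 to the signal, it was 0.58 (adjusted p = 3.50e-06), under the 2-fold limit. The brighter probe gave 0.80 ± 0.13 (adjusted p = 0.00190), under the 2-fold limit. CCL5, a chemokine made by cytotoxic T cells and other leukocytes, was at 9.18 to 12.41 (median 10.33) against 7.46 to 9.76 (median 8.32), a difference of 2.21 ± 0.34 (adjusted p = 9.91e-04). GZMA, a granule protease of killer cells, gave 1.06 ± 0.37 and did not pass (adjusted p = 0.288), nor did KLRD1 at 1.80, CCL4 at 1.71 or CD8B at 0.87. IFNG was not well above background on any of the arrays. By the brightest probe of each, 1 of 10 measured genes of this list was called, against 0.155% of all genes with a symbol. A positive difference was found in 8 of the 10, against 5090 of 11584 genes with a symbol. At an unadjusted p under 0.05 in limma, 7 were higher and 0 lower (against 5.4% and 6.13% of all genes with a symbol).

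CD4, the co-receptor of helper T cells that canine neutrophils also carry, was at 5.36 to 6.70 (median 6.18) against 5.06 to 6.86 (median 5.83). The groups overlapped over nearly their whole range, and the difference was 0.19 ± 0.16 (adjusted p = 0.674). ICOS, a costimulatory receptor of activated T cells, and CCR6, a chemokine receptor of T helper 17 cells and B cells, were called (adjusted p = 6.41e-04 and 0.00400). Both were well above background on 0 of the 13 T cell-poor arrays and on only 6 and 5 of the 13 T cell-rich arrays, so no fold is given for them, and neither passed with normexp background correction (adjusted p = 0.0744 and 0.0965). CTLA4, an inhibitory receptor of activated and regulatory T cells, gave 2.04 ± 0.45 with an adjusted p of 0.0305, which missed the threshold. CD40LG, the ligand by which helper T cells activate B cells, gave 1.21 ± 0.26 (adjusted p = 0.0257). Of 18 measured genes of this list 2 were called, against 0.155% of all genes with a symbol. A positive difference was found in 13 of the 18, against 5090 of 11584 genes with a symbol. At an unadjusted p under 0.05 in limma, 7 were higher and 0 lower (against 5.4% and 6.13% of all genes with a symbol). None of the 9 measured T cell transcription factors was called in the limma fit (median 0.11), with 0 higher and 1 lower at an unadjusted p under 0.05, that being SATB1 at -0.73. FOXP3, PDCD1, GZMB and GZMK have no named probe here.

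**Figure D2:**
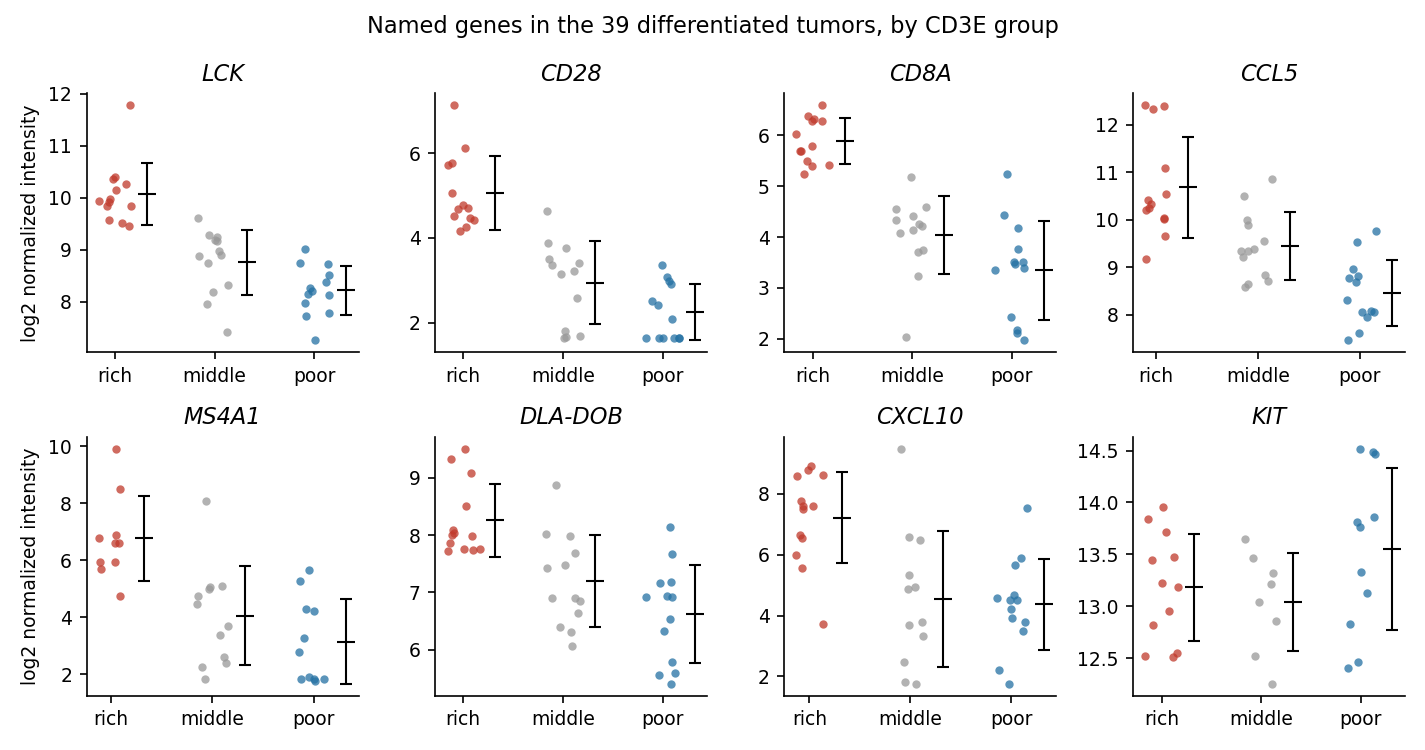
Log2 normalized intensity (vertical axes, each with its own range) of 8 genes in the T cell-rich (n = 13), middle (n = 13) and T cell-poor (n = 13) differentiated tumors, less the spots left out as outliers. Each point is a tumor and the bar beside the points is the mean ± SD. LCK and CD28 do not overlap between the outer groups, MS4A1, CCL5 and CXCL10 overlap in part, and KIT overlaps throughout.

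MS4A1 and 10 immunoglobulin chain probes were called higher, while most B cell genes were not. MS4A1, the B cell surface protein CD20, was at 4.74 to 9.91 (median 6.62) in 10 T cell-rich tumors and at 1.76 to 5.66 (median 2.77) in 11 T cell-poor tumors, the other spots having been left out as outliers. The groups overlapped at their ends, and the difference was 3.61 ± 0.62 (adjusted p = 0.00571), while with the scan session as a block it was 2.70 (adjusted p = 0.514). The probe was well above background on 3 of 13 T cell-poor arrays, and with normexp background correction the difference was 1.12 (adjusted p = 0.0996). IGHAC, a constant region of the IgA heavy chain, was at 12.14 to 16.08 (median 14.16) in 11 tumors against 9.24 to 13.41 (median 10.73), a difference of 2.96 ± 0.51 (adjusted p = 0.00435). Of the 65 probes described as immunoglobulin chains, 54 were higher and 10 were called, against 0.163% of all probes. Their median was 1.45, against -0.04 over all probes. The largest of them, listed as similar to the IgG heavy chain IGHG1, gave 4.07 ± 0.73, from 9.94 to 14.80 against 2.09 to 11.82. With the scan session as a block, none of the 10 passed in limma (adjusted p from 0.181 to 0.514), although each stayed higher at an unadjusted p under 0.05. Immunoglobulin genes are near-identical copies, so it is uncertain which class each probe reads. No other measured gene of the B and plasma cell list was called. CD79A, a subunit of the B cell receptor, gave 0.21 ± 0.19 (adjusted p = 0.696) and CD22 -0.16, while JCHAIN, which joins secreted IgA and IgM, gave 2.17 ± 0.49 (adjusted p = 0.0381). Of 13 measured genes of B and plasma cells 1 was called, against 0.155% of all genes with a symbol, and the median was 0.21. A positive difference was found in 9 of the 13, against 5090 of 11584 genes with a symbol. At an unadjusted p under 0.05 in limma, 6 were higher and 0 lower (against 5.4% and 6.13% of all genes with a symbol). The mean level of the list ranged from 7.01 to 9.53 in the T cell-rich and from 6.36 to 8.11 in the T cell-poor tumors.

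Receptor chain and immunoglobulin levels were set side by side for each tumor. The mean level of the 4 called receptor chain probes was 8.54 to 10.63 in the T cell-rich and 5.85 to 7.98 in the T cell-poor tumors, and that of the 10 called immunoglobulin probes was 8.35 to 11.53 against 5.05 to 9.34. T134 had the highest receptor chain level among the T cell-poor tumors, and T100 the highest immunoglobulin level. T134, T107 and T100 reached the level of the lowest T cell-rich tumor in 29, 26 and 21 of the 71 called probes, and the other T cell-poor tumors in 4 to 16.

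**Figure D3:**
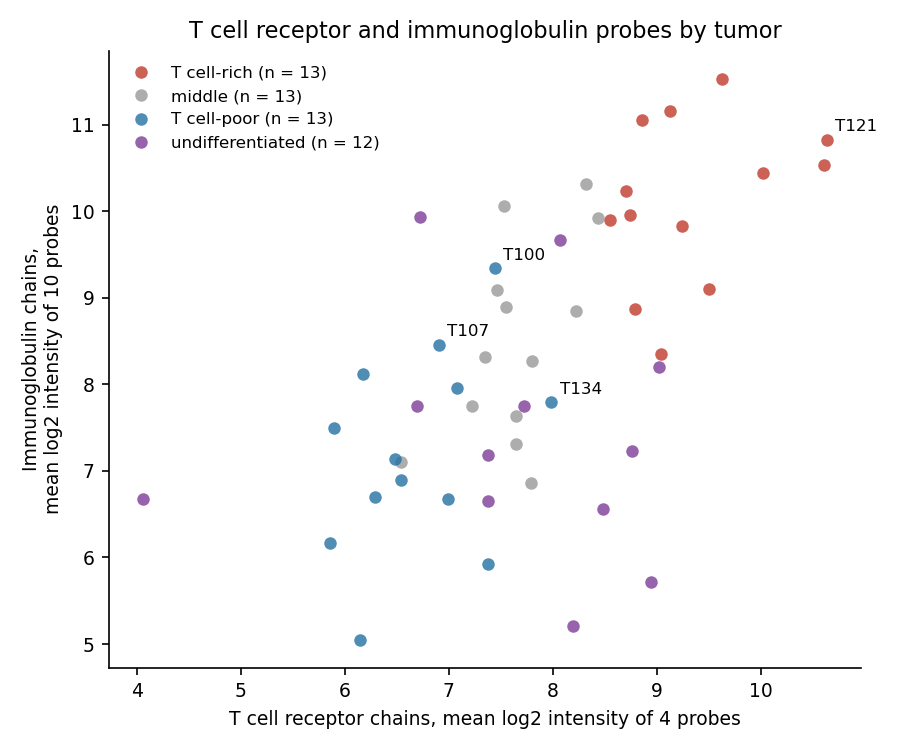
Mean log2 normalized intensity of the 4 called T cell receptor chain probes (horizontal axis) and the 10 called immunoglobulin chain probes (vertical axis), with a point for each of the 51 tumors. The probes were called between the red and blue tumors, whose separation is therefore given, and the 12 undifferentiated tumors spread over both axes, from 4.07 to 9.02 and from 5.21 to 9.93.

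All 13 measured genes of MHC class II presentation had a positive difference, against 5090 of 11584 genes with a symbol. Of the 13, 11 were at an unadjusted p under 0.05 (against 5.4% of all genes with a symbol), and 1 was called (against 0.155%). The median of the list was 1.04. DLA-DOB, a regulator of peptide loading found mainly in B cells, was at 7.72 to 9.51 (median 8.00) against 5.40 to 8.13 (median 6.91), a difference of 1.64 ± 0.29 (adjusted p = 0.00400), or 1.03 with normexp background correction. CIITA, the master regulator of these genes, gave 1.21 ± 0.28 and CD74, their chaperone, 1.06 ± 0.23, and neither passed (adjusted p = 0.0502 and 0.0297). A second probe for the DRB1 beta chain was called at 1.44 ± 0.24, where the brighter one gave 0.76. The largest difference among the called probes, 4.72 ± 0.86, belonged to a probe for the variable region of a class II beta chain, with levels of 8.04 to 14.65 against 3.95 to 12.76 (adjusted p = 0.00593). These chains are highly polymorphic between dogs, and the part of the alleles in this difference was not tested.

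No chemokine ligand or receptor of the chemokine list was called, although CXCL10 and CXCL13 had differences above the median of the called probes. CXCL10, an interferon-induced chemokine that attracts T cells, was at 3.72 to 8.90 (median 7.58) against 1.76 to 7.52 (median 4.50), a difference of 2.85 ± 0.57 (adjusted p = 0.0153). CXCL13, which attracts B cells, gave 3.62 ± 0.79 (adjusted p = 0.0290) and was well above background on 11 T cell-rich and 2 T cell-poor arrays. CXCL16, IDO1 and IRF1 gave 0.89, 2.66 and 0.78 (adjusted p = 0.0198, 0.0455 and 0.0261). CXCR3, the receptor of CXCL10, gave -0.20 ± 0.21 (adjusted p = 0.751). CCL19 and CCL21, which guide lymphocytes to lymph nodes, gave 1.26 ± 0.57 and 1.88 ± 0.91 with wide spread and did not pass (adjusted p = 0.451 and 0.487). None of the 13 measured chemokine genes was called by limma at this threshold, although 11 had a positive difference, against 5090 of 11584 genes with a symbol. Of the 11, 9 were at an unadjusted p under 0.05 (against 5.4% of all genes with a symbol), and the median of the list was 1.26. Of the 24 interferon-stimulated genes 0 were called, 3 were higher at an unadjusted p under 0.05 and the median was 0.22, with MX1 at -0.01 and ISG15 at 0.02. CD80, a ligand of CD28, was called by 1 of its 3 probes at 1.11 ± 0.19 and missed the threshold by the brightest, at 0.82.

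SLAMF1, a receptor of activated lymphocytes, was at 4.62 to 7.75 (median 5.60) in 12 T cell-rich tumors against 1.62 to 4.95 (median 3.36), a difference of 2.60 ± 0.39 (adjusted p = 7.22e-04). SLAMF1 was well above background on 6 of 13 T cell-poor arrays, and with normexp background correction the difference was 0.65 (adjusted p = 0.0114). LTB, the lymphotoxin that organizes lymphoid tissue, was at 9.80 to 13.16 (median 10.59) against 7.05 to 9.98 (median 8.75), a difference of 2.21 ± 0.34 (adjusted p = 9.41e-04), and its second probe did not overlap between the groups. CLEC2D, a ligand of an NK cell receptor, was called, but it was well above background on 1 of 13 T cell-poor arrays, and with normexp background correction the adjusted p was 0.0564 at a difference of 0.41. A called probe without a symbol lies near it, at 2.21 ± 0.40, well above background on 11 T cell-poor arrays. Whether that probe reads CLEC2D was not tested. Further called genes included KCNA3, a potassium channel of T cells (1.23 ± 0.22), TNFRSF25, a TNF receptor of T cells (1.17 ± 0.15), and DENND2D (1.12 ± 0.15). PCDHAC2, which is in none of the gene lists, was called by a pair of probes, at 2.12 ± 0.37 and 1.78 ± 0.28 (limma adjusted p = 0.00420 and 0.00190). The latter was well above background on 7 T cell-rich and 0 T cell-poor arrays. CFB, a complement factor, gave 2.55 ± 0.36, but its probe is described in the scanner output as complement component 2, its neighbour, so its identity is uncertain. Over the 39 tumors the genes whose levels ran closest to the score were CD27, PTPRCAP, LCK, ICOS, SH2D1A, CD40LG, CCL5, SLAMF1, MS4A1 and LTB, with Pearson's r from 0.88 to 0.78, as a description.

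**Figure D4:**
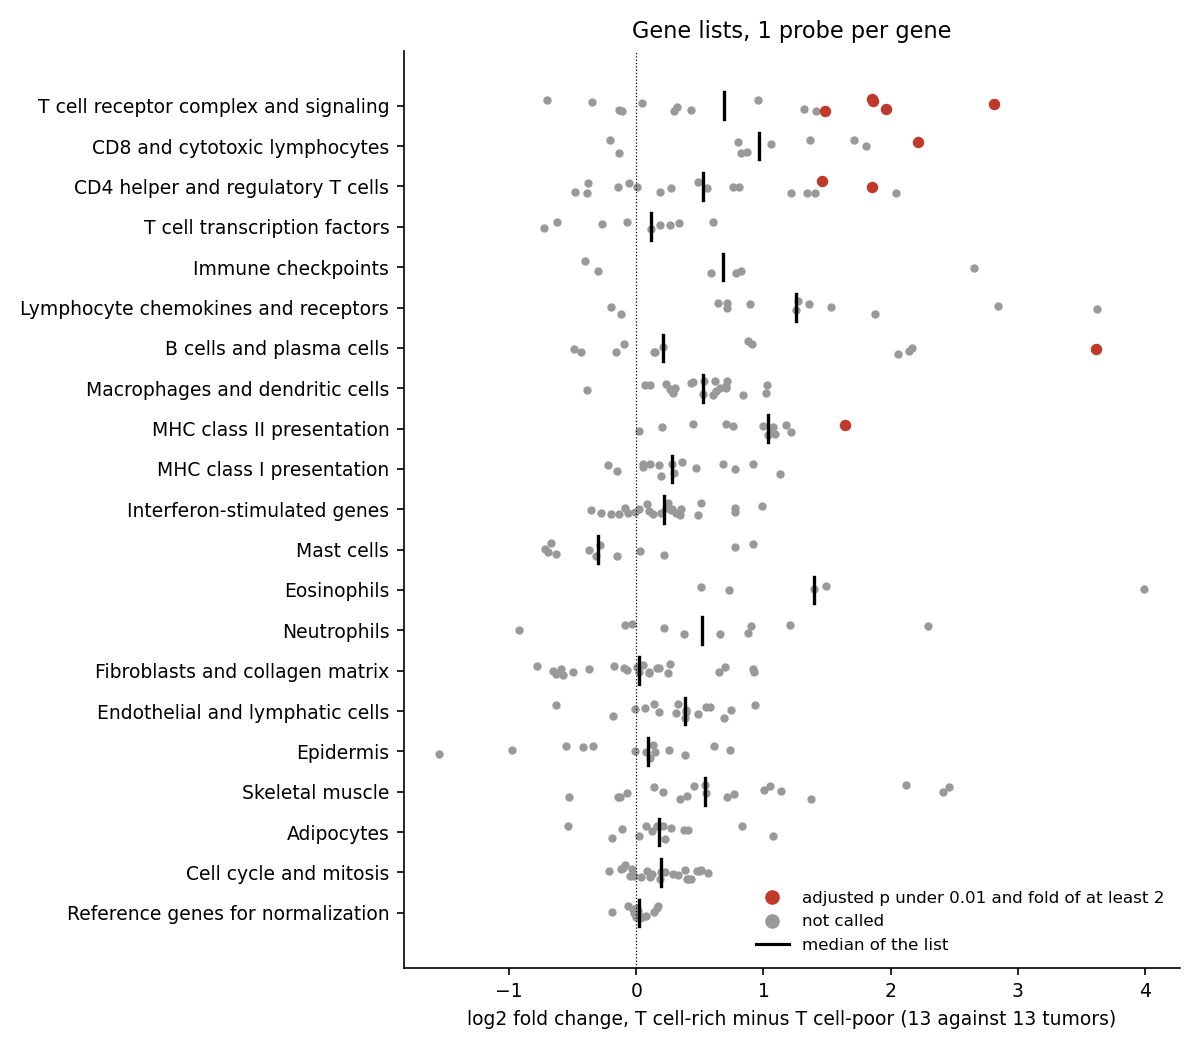
Log2 fold change of T cell-rich minus T cell-poor tumors (horizontal axis, 13 against 13) for the measured genes of 21 lists (vertical axis), 1 probe per gene, with called genes in red and the median of each list as a bar. Called genes lie in the T cell, cytotoxic, helper, B cell and MHC class II lists. The medians run from -0.30 for mast cells to 1.40 for the 5 measured eosinophil genes, none of which was called.

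No marker of mast cells or of other tissue was called. Among the mast cell genes, KIT, the receptor that drives mast cell growth, was at 12.51 to 13.95 (median 13.20) in 12 T cell-rich and at 12.41 to 14.52 (median 13.76) in 11 T cell-poor tumors, a difference of -0.37 ± 0.27 (adjusted p = 0.622). MS4A2, a subunit of the IgE receptor, gave -0.69 ± 0.25 (adjusted p = 0.326, with 9 T cell-rich values). Of the 12 measured mast cell genes 8 had a negative difference, against 6494 of 11584 genes with a symbol. Of the 8, 3 were at an unadjusted p under 0.05 (against 6.13% of all genes with a symbol). Of the 4 with a positive difference, 1 was at an unadjusted p under 0.05 (against 5.4%). That gene was CTSG, at 0.92 ± 0.28 (limma adjusted p = 0.199), well above background on 13 T cell-rich and 5 T cell-poor arrays. In this list 0 were called, the median was -0.30, and the mean level was 11.97 to 13.75 against 12.20 to 14.30. Macrophage and dendritic cell genes had a positive difference in 21 of 22, against 5090 of 11584 genes with a symbol, with 0 called (median 0.53, 4 at an unadjusted p under 0.05, all higher). The eosinophil chemokine CCL26 gave 4.00 ± 0.99 and did not pass (adjusted p = 0.0730), being well above background on 11 T cell-rich and 3 T cell-poor arrays. All 5 measured eosinophil genes had a positive difference, 3 of them at an unadjusted p under 0.05, with 0 called. Skeletal muscle genes had a median of 0.54 with 0 of 20 called, and their mean level reached 10.03 in the T cell-rich and 7.04 in the T cell-poor group, while epidermal genes spanned 3.83 to 13.14 and 3.55 to 13.18. Cell cycle genes (median 0.19, 0 of 24 called, none at an unadjusted p under 0.05) and 14 reference genes (median 0.02, 0 called, none at an unadjusted p under 0.05) stood beside the median of -0.03 over all genes. The medians were 0.68 for 6 checkpoint genes, 0.28 for 15 MHC class I genes, 0.52 for 10 neutrophil genes, 0.38 for 17 endothelial genes, 0.18 for 15 adipocyte genes, 0.09 for 14 epidermal genes and 0.02 for 23 fibroblast and collagen genes, with 0 called by the brightest probe in each of these lists. At an unadjusted p under 0.05 in limma, 6 MHC class I, 3 checkpoint, 2 neutrophil and 4 muscle genes were higher and 0 lower. That compares with 5.4% higher and 6.13% lower of all genes with a symbol. Endothelial genes gave 1 higher and 1 lower, fibroblast and collagen genes 1 and 2, and adipocyte and epidermal genes 0 and 0. The part of muscle and other tissue in the called differences was not tested.

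The undifferentiated tumors, which had no part in the grouping, were asked whether the same probes followed CD3E in them. A slope of each probe on the CD3E score was fitted by limma over 11 of the 12 tumors, whose scores ran from -2.10 to 1.48, the spot of the last having been left out as an outlier. No probe of 43599 passed an adjusted p of 0.01 (0%), and 2559 had an unadjusted p under 0.05. Of the 71 called probes 53 had a positive slope, against 47.9% of all probes. In 33 the slope was positive at an unadjusted p under 0.05, against 3.11% of all probes. The unnamed probe beside CD3G was among the 33. The slope of LCK was 0.47 ± 0.08 per unit of score (unadjusted p = 8.82e-05, adjusted p = 0.573), that of the CD8A probe of the larger difference 0.75 ± 0.12 (unadjusted p = 1.00e-04, adjusted p = 0.573) and that of the receptor alpha chain 0.82 ± 0.10 (adjusted p = 0.247). None of these passed the adjustment over all probes. Of the 10 immunoglobulin probes 9 had a negative slope, the median was -0.62, and 0 of the 10 had an unadjusted p under 0.05.

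The difference between the classes was tested as an interaction of class and score over 50 tumors. For the 10 immunoglobulin probes the slope was lower in the undifferentiated tumors in 10 of 10, with an unadjusted p under 0.05 in 10 (against 11.5% of all probes), adjusted p-values from 0.0247 to 0.358, 2 of them under 0.05 (against 0.158%) and 0 under 0.01 (against 0.00229%). For the 4 receptor chain probes adjusted p-values ran from 0.304 to 0.626. The levels in the differentiated tumors had been used to choose these probes, so the comparison of slopes is not independent of the choice. In the 13 middle tumors, whose scores covered only -0.58 to 0.31, no probe passed an adjusted p of 0.01 either (0%, 3111 at an unadjusted p under 0.05). There 62 of the 71 slopes were positive, against 57.8% of all probes, and 13 of them had an unadjusted p under 0.05, against 4.68%. SH2D1A gave 1.65 per unit of score (limma unadjusted p = 0.00483).

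**Figure D5:**
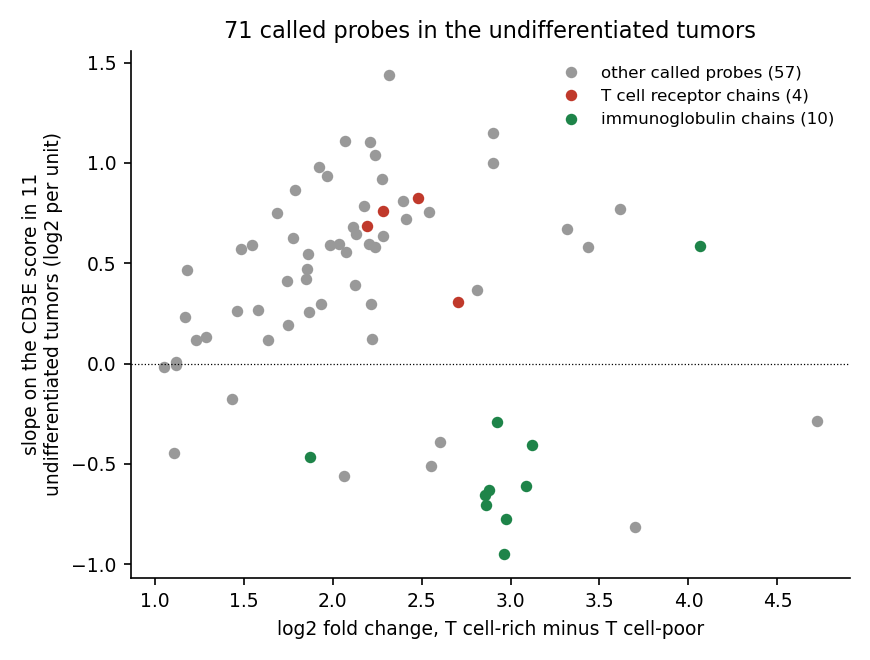
Log2 fold change of T cell-rich minus T cell-poor differentiated tumors (horizontal axis) and slope on the CD3E score in 11 undifferentiated tumors in log2 per unit of score (vertical axis), with a point for each of the 71 called probes. The 4 receptor chain probes lie at slopes of 0.31 to 0.82, and the 10 immunoglobulin chain probes at -0.95 to 0.59, 9 of them below 0.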

How the data were processed

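The 51 arrays (1 tumor each) were scanned by the authors and read with Agilent Feature Extraction. The deposited processed signal is an intensity, background-subtracted within the array and not normalized between arrays. The authors also deposited a table of intensities that they quantile-normalized over the 51 arrays. The number of arrays limits the precision. The differentiated or undifferentiated class is not in the labels and was taken from the study's own classification, 1 undifferentiated tumor being matched by elimination.

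Here the deposited intensity was log2-transformed and then quantile-normalized across all 51 arrays, with controls left out, spots marked as outliers by the software set to missing (718 to 3291 per array) and spots of a probe averaged, which left 43603 probes, 19098 with a gene symbol (11592 genes) from the scanner output or a RefSeq gene table (assembly UU_Cfam_GSD_1.0). Each array had 59.4% to 74.8% of its spots well above background. limma 3.58.1 in R 4.3.3 compared the 26 tumors without covariates, with Benjamini-Hochberg adjustment over all probes. The CD3D, CD3E and CD3G probes were not tested. A change from a level below background throughout a group is given as a bound. Categorical traits were compared by Fisher's exact test and others by permutation (100000 draws). The study describes 51 dogs, so each tumor came from a different dog.

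Members, gene lists and tests were chosen with earlier results of these data known. Genes were named by rule: the 10 largest changes in each direction among called genes, per list the 3 largest called (otherwise the 2 of lowest p), fixed lymphocyte and mast cell genes, and the 10 closest to the score. Other genes, such as CD27, JCHAIN, CXCL13, KCNA3, TNFRSF25, DENND2D, PCDHAC2 and the uncalled list members given beside them, were named after their values were seen. Not every gene that the rule selects is printed. Those left out come from lists without a called gene, such as CCL24, FLT3, LYZ, SELP, CAMP, FLT1 and KDR. A gene was read by its brightest probe. Steps were tested on simulated data. Alternatives were other scalings and backgrounds, filters, blocks, covariates, groupings and left-out tumors.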

Additional observations from a re-analysis of the deposited data

Results flagged for a closer look

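The slope on the CD3E score differed between the classes at an adjusted p under 0.01 for 1 probe of 43599, an unnamed cDNA of a kidney library, whose slope was lower by 0.63 in the undifferentiated than in the differentiated tumors (-0.6337 in log2 per unit of score, limma interaction over 50 tumors).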

How the results depend on the processing

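Against the 71 called probes, normexp background correction gave 30, an adjusted p under 0.05 gave 168 (165 higher and 3 lower), the slide as a fixed block 17, the scan session as a fixed block 7, the share of spots well above background as a covariate 46, the 39 tumors in 3 groups 108, the score as a slope over the 39 tumors 166, and the top 10 against the bottom 10 gave 40. Chosen after seeing the data, groups from CD3E, CD3D and CD3G together gave 152, of which 62 were among the 71, and the mean level of the 10 called immunoglobulin probes as a covariate gave 0 (1978 at an unadjusted p under 0.05), a covariate that the same comparison had picked. The cause of these moves was not tested. Scaling to the 75th percentile, the authors' table, the dim filter, outlier spots kept, a random slide effect, a term for sex or for age, the top 17 against the bottom 17 of all tumors, and re-ranking without T53 kept the count within 1.5 times (58 to 97). Leaving out 1 tumor at a time gave 59 to 98 calls. Groups from a score without dim CD3 probes are the same groups, since CD3E was well above background on all 39. Of the genes in lists, 10 were called and 0 with the session as a fixed block, while other settings gave 9 to 15. No slope in the undifferentiated tumors passed under any setting, nor when 1 tumor at a time was left out (0 to 0), and the interaction of class and score gave 1. Of the 17 named called probes, 17 kept their direction under every setting in which they were tested, and 0 were called with the session as a fixed block, 3 with the slide as one and 8 with normexp, under which the printed sizes of dim probes fell. No paired analysis was possible because the labels give no replicate numbers shared between groups. Signal over background limits CD28, ICOS, CCR6, CLEC2D, CD8A, MS4A1, SLAMF1 and the hcvb21 probe.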
